A study of Mus musculus with 6 samples.

Results

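DNA methylation was examined at 10 genes that mark astrocytes, Gfap, Aqp4, S100b, Slc1a2, Slc1a3, Aldh1l1, Gja1, Glul, Aldoc and Apoe, in the mouse dentate gyrus after housing in an enriched environment (ENR) or in standard cages (STD). A CpG site, meaning a cytosine on a given strand that is followed by a guanine, was assigned to a gene if it lay between 1 kb upstream of the gene's annotated start and its end. This rule gave 397 of the 890041 sites in the table, and 10 of the 22955 genes with at least 3 sites. None of the 10 genes had fewer than 3 sites: S100b had the fewest with 5, and Slc1a2 the most with 110. Methylation had been measured by reduced representation bisulfite sequencing (RRBS), which reads fragments cut at CCGG and so covers CpG-rich stretches far better than the rest of a gene, and each value is the percentage of reads that were methylated at a site.

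The 6 libraries came from micro-dissected dentate gyrus of female C57BL/6JRj mice aged 4.5 months, 3 housed in STD and 3 in ENR, a larger shared enclosure with tunnels and toys. ENR mice had entered the enclosure at 6 weeks of age and stayed for 3 months. Because ENR mice of an experiment shared an enclosure, the enclosure and the housing cannot be told apart. The mean over all 890041 sites ranged from 21.3% to 24.3% between libraries, and replicate 3 was the lowest library of each group (22.5% in STD and 21.3% in ENR). Read numbers were not used here, so the depth behind a value is unknown beyond the authors' minimum of 10 reads, at which a single read moves a site by 10 percentage points.

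Astrocytes are the glial cells that clear glutamate and potassium from the synaptic cleft, regulate water and supply neurons with metabolites, and in the dentate gyrus the radial stem cells that give rise to new granule neurons share many of their genes. Cytosine methylation at CpG-dense transcription starts usually goes with silence of the gene, whereas CpGs inside the body of a gene are usually methylated; CpG-poor starts can differ between cell types. The tissue is a mixture in which granule neurons are abundant, so an intermediate percentage can come from some cells being methylated and others not, and a change in cell numbers and a change of methylation within a cell type cannot be told apart. Methylation alone gave no check of the tissue's identity.

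The sequences that carry the contrasts described here are printed 5′ to 3′ along the gene from the GRCm38 genome, and in this first set the covered CpGs are in capitals and all other bases in lower case. The unmethylated and fully methylated ends of Apoe are shown with the start of Glul, all of whose covered CpGs upstream of the gene lay at 0%. They are followed by both start regions of Aldh1l1, at which neighbouring CpGs took very different intermediate levels.
Glul upstream of the start, chr1:153899824-153899943, plus strand: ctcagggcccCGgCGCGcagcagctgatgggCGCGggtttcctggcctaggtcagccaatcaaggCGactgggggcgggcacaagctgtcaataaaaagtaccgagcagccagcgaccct
Apoe near the start, intron, chr7:19698668-19698798, minus strand: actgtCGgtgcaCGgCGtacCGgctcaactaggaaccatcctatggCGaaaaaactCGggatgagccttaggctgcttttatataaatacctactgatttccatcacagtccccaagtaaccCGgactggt
Apoe coding exon, chr7:19696455-19696615, minus strand: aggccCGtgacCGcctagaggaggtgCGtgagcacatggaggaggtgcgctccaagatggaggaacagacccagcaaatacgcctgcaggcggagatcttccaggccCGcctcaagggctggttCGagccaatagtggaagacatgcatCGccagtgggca
Aldh1l1 upstream start, noncoding transcript, chr6:90486262-90486502, plus strand: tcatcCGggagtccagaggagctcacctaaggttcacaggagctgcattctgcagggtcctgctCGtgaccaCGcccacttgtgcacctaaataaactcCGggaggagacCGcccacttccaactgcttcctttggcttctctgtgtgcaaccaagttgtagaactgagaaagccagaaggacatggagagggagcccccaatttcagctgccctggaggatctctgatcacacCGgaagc
Aldh1l1 upstream of the protein-coding start, chr6:90550369-90550619, plus strand: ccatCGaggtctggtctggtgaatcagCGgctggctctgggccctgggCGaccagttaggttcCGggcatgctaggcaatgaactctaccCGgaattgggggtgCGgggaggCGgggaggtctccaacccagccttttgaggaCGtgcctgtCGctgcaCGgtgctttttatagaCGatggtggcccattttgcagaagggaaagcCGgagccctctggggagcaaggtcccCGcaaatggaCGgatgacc

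Across the 397 sites, 63.7% were methylated at less than 10% on average over the 6 libraries, the same share as among all sites (63.7%). Intermediate levels from 20% to 80% were found at 19.4% of the astrocyte gene sites and at 14.6% of all sites, and levels above 80% at 8.82% and 15.5%. Aldh1l1 alone held 31 of the 77 intermediate astrocyte gene sites. These shares were not tested, since neighbouring sites are not independent. Runs of sites with gaps of at most 500 bp are called stretches here. Pooled over genes, the level differed by position. The 301 sites within 1 kb of any annotated transcription start averaged 9.35%, and the 96 sites farther away averaged 45.6%. In each of the 6 libraries the distant sites were above the start sites, at 39.4% to 49.1% against 8.73% to 10.1%. This order did not hold in every gene: among the 6 genes with sites of both kinds, Gfap (38.1% near a start, 15.7% farther away) and Aqp4 (24.0% and 9.93%) had the opposite order. Coding exons averaged 64.96% over 42 sites, introns 16.9% over 208 and untranslated exons 4.17% over 94.

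**Figure D1:**
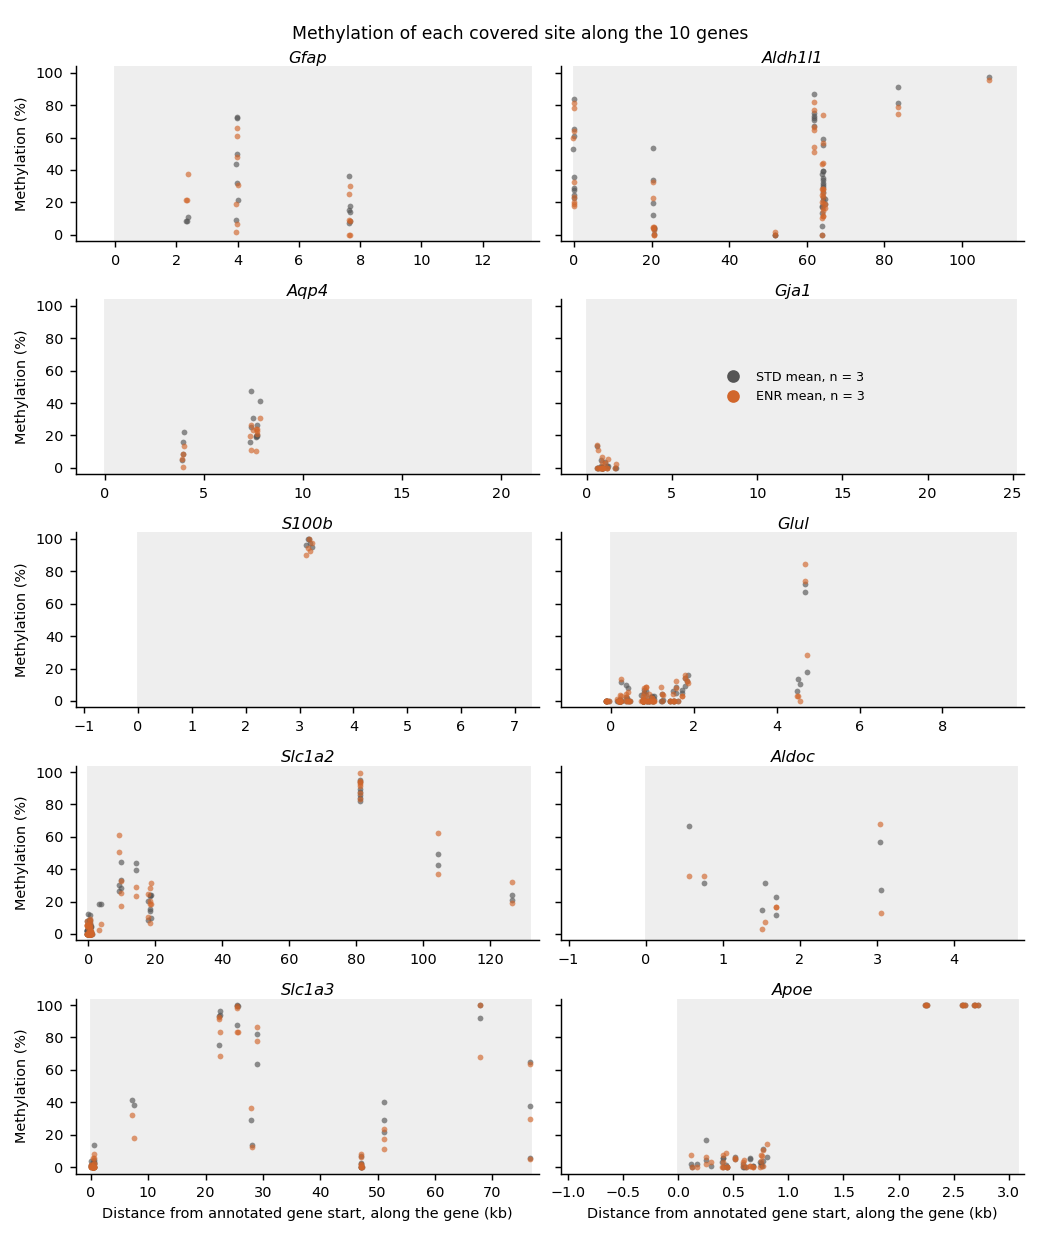
Each panel plots the methylation (%) of every covered site of a gene against its distance from the annotated gene start (kb), with STD means in grey and ENR means in orange (n = 3 each) and the gene shaded. Slc1a2, Slc1a3, Gja1, Glul and Apoe are near 0% at their starts, Apoe reaches 100% in its coding exon, and Gfap, Aqp4, Aldoc and Aldh1l1 lie mostly between these levels.

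Apoe, the main lipid-carrying apolipoprotein of the brain, is made by astrocytes (chr7:19696109-19699188, minus strand). Its start and its coding exon lay at opposite ends of the scale: 30 sites over 693 bp that begin 115 bp inside the gene averaged 3.26%. None of these 30 sites had a mean over the 6 libraries above 11.3%. The next 9 sites, in the coding exon 2243 bp to 2723 bp from the gene start, were read as 100% in all 6 libraries. All 9 were covered on the plus strand only, so the level of the opposite strand was not measured. Of the whole table, 1.13% of sites were at 100% in every library. Across the gene window Apoe was the most even of the 10 genes in ENR, with values of 25.6%, 25.7% and 25.7% against 26.0%, 24.9% and 25.6% in STD. The groups overlapped, with a difference of 0.161 percentage points (ENR minus STD, p = 0.8, two-sided exact permutation test, n = 3 per group).

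The glutamate-handling genes had little methylation around the annotated gene start. Slc1a2 (chr2:102658659-102790784, plus strand) encodes GLT-1, the glutamate transporter that takes up most synaptic glutamate. Its 82 sites around the start, the last of them 980 bp into the gene, averaged 1.30%, with library means from 0.684% to 1.98%. Levels were higher inside the gene: 5 intronic sites 9257 bp to 9812 bp from the start averaged 35.1%, and 7 coding-exon sites about 81 kb in averaged 90.05%. In the STD libraries those exon sites stood at 80.4%, 94.9% and 89.8%, and in the ENR libraries at 91.5%, 90.8% and 92.9%, so the groups overlapped. A pair of intronic sites 14.2 kb from the start were at 57.7%, 54.3% and 13.8% in STD and 36.9%, 36.1% and 6.25% in ENR. There, replicate 3 was far below the others in both groups. The gene Gm13872 overlaps 7 of the Slc1a2 sites.

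Slc1a3 (chr15:8634124-8710764, minus strand) encodes GLAST, the glutamate transporter shared by astrocytes and radial stem cells. Its 23 sites nearest the start averaged 1.34%, with library means between 0.385% and 2.03%. A second low stretch of 7 sites lay deep in an intron, about 47 kb from the gene start and over 12 kb from the nearest annotated start, and averaged 2.07%. It was low in every library (0.809% to 4.75%), while stretches on either side of it stood at 77.5% and 23.8%. By contrast, a pair of sites 277 bp and 351 bp from a start inside the gene averaged 89.9%. The 23.8% stretch was uneven, and at 6.13% and 1.56% in ENR replicates 2 and 3. Glul (chr1:153899944-153909723, plus strand), the glutamine synthetase that turns glutamate into glutamine, had 79 sites around its start with an average of 2.15%. Its other 6 sites, about 4.5 kb in and within 1 kb of a start inside the gene, averaged 31.6% and were uneven. A coding-exon site 4695 bp from the start was at 58.2%, 74.5% and 84.2% in STD and 89.1%, 67.6% and 96.4% in ENR, whereas a site 4501 bp from the start averaged 4.43%. Of the Glul sites, 21 also lie within the gene Teddm2, and the values cannot be assigned to either gene alone. Gja1 (chr10:56377330-56402513, plus strand), the gap junction protein connexin 43 that couples astrocytes to each other, resembled these genes: its 20 sites averaged 1.79%, and the highest averaged 6.94%.

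Gfap, Aldh1l1, Aqp4 and Aldoc carried intermediate methylation within 1 kb of an annotated transcription start. Gfap and Aqp4 had no covered site within 1 kb of the annotated gene start, only near starts inside the gene. They were therefore not read at the same kind of start as the genes above. Gfap (chr11:102887336-102900912, minus strand) encodes the intermediate filament that is the classical astrocyte marker. No covered site lay closer than 169 bp to a Gfap transcription start. The 7 sites of the coding exon next to a start inside the gene, 3950 bp to 4020 bp from the annotated gene start, averaged 38.1%. The STD libraries read 32.6%, 51.3% and 44.9% and the ENR libraries 21.4%, 32.5% and 46.0% there. Both groups spread widely and overlapped (p = 0.4, two-sided exact permutation test, n = 3 per group). Within this exon the site means ran from 5.37% to 69.3%, and 3 of the 7 were above 50%. All 16 Gfap sites lie within the annotated gene Gm26668 as well.

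Aldh1l1 (chr6:90486427-90600203, plus strand) encodes the folate enzyme 10-formyltetrahydrofolate dehydrogenase, a marker of nearly all astrocytes. Its start regions held intermediate levels. At the upstream start, used by a noncoding transcript, 9 sites averaged 44.4%, and the libraries stayed between 41.0% and 45.8%. Upstream of the protein-coding start, 18 sites averaged 27.7%, with libraries from 23.9% to 30.0%. A pair of sites 276 bp and 317 bp inside that start averaged 19.1%, with libraries from 12.5% to 25.6%. Single CpGs within a stretch took different levels. The plus-strand site at position 90486372 was at 67.6%, 86.7% and 97.4% in STD and 68.4%, 100% and 75.0% in ENR. The nearby minus-strand site at position 90486362 was at 28.9%, 14.6% and 24.1% in STD and 30.5%, 17.4% and 13.5% in ENR, and every library was lower there than at 90486372. The opposite strand could be read at 3 CpGs of this stretch: the strands averaged 62.5% and 71.9% at the CpG at 90486334, 30.6% and 23.5% at 90486326 and 26.6% and 21.5% at 90486361. In this stretch the highest of the 3 CpGs was the same on both strands. The CpG at 90550521, just upstream of the protein-coding start, averaged 56.2% on the plus strand and 66.4% on the minus strand, while the CpG at 90550512 averaged 20.6% and 23.6% that at 90550528 averaged 25.2% and 25.1%, and that at 90550575 averaged 31.7% and 20.3%. The gene Gm45901 overlaps 9 of the Aldh1l1 sites.

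Aqp4 (chr18:15389496-15410982, minus strand) is the water channel of astrocyte end-feet. It was at 24.0% over 10 sites within 1 kb of starts inside the gene, 7312 bp to 7837 bp from the annotated gene start. Over 4 intronic sites about 4 kb from the annotated gene start it was at 9.93%. Over its whole window of 14 sites Aqp4 was at 23.3%, 18.2% and 26.5% in STD and at 18.8%, 17.0% and 16.1% in ENR. The STD mouse with the lowest value lay below the ENR mouse with the highest. The difference was -5.35 percentage points, with the smallest unadjusted p of the 10 genes (0.0596, limma; adjusted p = 1.00 over all genes). It was -3.42 without STD replicate 3, -7.59 without STD replicate 2 and -2.85 with replicates 1 and 2 only. The gene AC133525.2 overlaps all 14 sites. Aldoc, the brain form of aldolase, a glycolytic enzyme, had only 8 sites, averaging 28.7% (chr11:78322968-78327781, plus strand). The STD values were 28.6%, 38.2% and 31.8% and the ENR values 35.8%, 21.0% and 16.8%. Its difference was -8.35 percentage points, with ENR replicate 1 among the STD mice (p = 0.3, two-sided exact permutation test, n = 3 per group). This value rested on single libraries: it was -14.0 without ENR replicate 1 and -4.47 without ENR replicate 3. S100b, a calcium-binding protein of astrocytes, differed from all of them (chr10:76253853-76261159, plus strand). Its 5 sites, over 3.1 kb into the gene, averaged 96.3%, with libraries from 90.6% to 99.3%, and it had no covered site within 1 kb of a start.

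Start regions were compared with those of other cell-type genes, taking sites within 1 kb of any annotated start. Of the 9 astrocyte genes with such sites, 4 (Gfap, Aldh1l1, Aldoc and Aqp4) averaged above 20%, which is 44.4% of them, against 18.2% of the 19525 genes with at least 3 start sites. In a further list of astrocyte genes 1 of 21 did so, and so did 0 of 6 oligodendrocyte genes, 2 of 3 microglia genes, 0 of 10 granule neuron genes and 0 of 6 endothelial genes. No test was made of these shares, since the genes were chosen with results known. In the RefSeq promoter table (GRCm38, 250 bases before to 50 after a start), 9 of the 10 genes were found. Their 12 promoters held from 1 CpG (Slc1a2, at a start inside the gene) to 17 (Glul), and 7 of the 12 held more than the median of 7 over 32851 promoters.

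**Figure D2:**
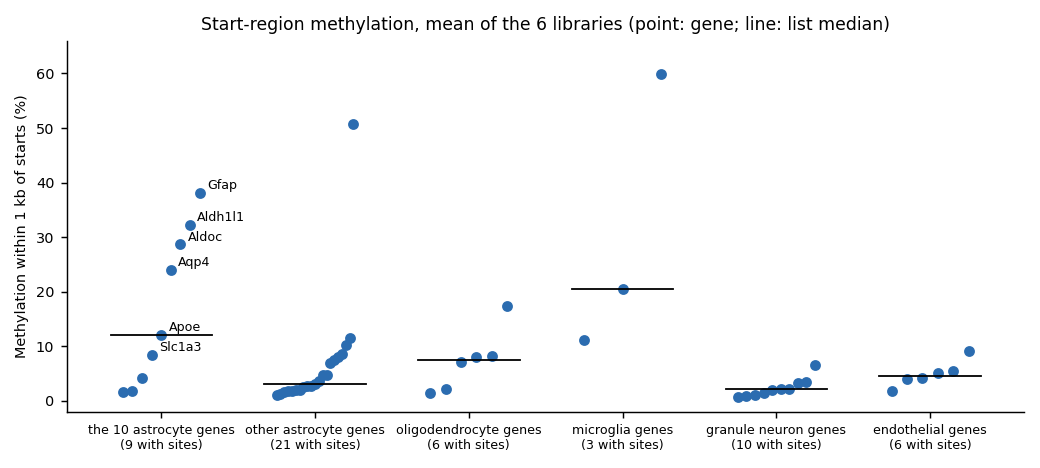
Each point is the methylation (%) of a gene within 1 kb of its transcription starts, averaged over the 6 libraries, by list, with the list median as a line. Gfap, Aldh1l1, Aldoc and Aqp4 lie above 20%, and the other 5 of the 9 astrocyte genes lie below it.

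Housing was then compared over the gene windows. No gene window passed limma's adjusted p of 0.05 (0 of 10 astrocyte genes, and 0% of all 22934 windows tested), and none of the 10 had an unadjusted p under 0.05, against 3.86% of all windows. That count was 1 with strands averaged, without STD replicate 2 or without ENR replicate 1. By difference, 7 of the genes were lower in ENR and 3 higher, where 57.6% of all gene windows were lower, with a median of -2.53 percentage points against -0.192 over all genes. The latter was 0.145 without ENR replicate 3 and 0.188 after quantile normalization. The median over the 10 genes was -1.568 and -1.965 in these settings, and -1.321 without STD replicate 2. Groups did not overlap at 2 of the 10 genes, Aldh1l1 and Slc1a3, against 8.46% of all gene windows. Aldh1l1 was at 38.7%, 38.5% and 35.7% in STD and 35.2%, 35.3% and 31.4% in ENR, so that the highest ENR library was only just below the lowest STD library. The difference was -3.67 percentage points (p = 0.1, two-sided exact permutation test, n = 3 per group), where 0.1 is the smallest p that 3 against 3 mice allow. Slc1a3 was at 27.0%, 29.7% and 27.0% in STD and 26.5%, 26.7% and 23.2% in ENR, with a difference of -2.46 percentage points and the same smallest p of 0.1 in the exact permutation test. Without ENR replicate 3 the difference was -2.41 for Aldh1l1 and -1.31 for Slc1a3, and without STD replicate 2 it was -1.56 for Slc1a3. After quantile normalization of the libraries it was -2.11 for Aldh1l1 and -2.08 for Slc1a3, with an exact permutation p of 0.3 and 0.2. With medians over sites the exact permutation p was 0.8 and 0.4. With replicates 1 and 2 only, chosen after seeing that both replicate 3 libraries were low, the median over the 10 genes was -2.21 percentage points and that over all genes -0.0699.

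**Figure D3:**
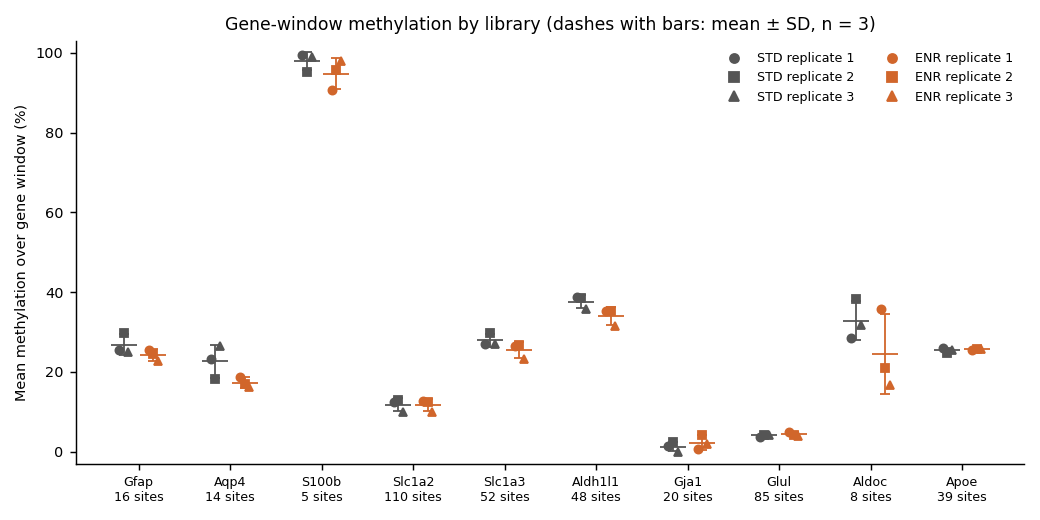
Points show the mean methylation (%) over the gene window in each library, by gene and number of sites, with the group mean ± SD (n = 3). The groups of Aldh1l1 and Slc1a3 do not overlap, and those of the other 8 genes do.

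The remaining windows overlapped between groups. Gfap averaged 26.8% ± 2.64 in STD and 24.2% ± 1.42 in ENR (SD, n = 3), S100b 97.8% ± 2.27 and 94.8% ± 3.79, Slc1a2 11.8% ± 1.57 and 11.8% ± 1.53, Gja1 1.29% ± 1.22 and 2.29% ± 1.82, and Glul 4.10% ± 0.295 and 4.35% ± 0.503. For these 5 differences p ran from 0.2 to 0.9 (two-sided exact permutation tests, n = 3 per group), in a test whose smallest p is 0.1. At the start regions, groups did not overlap at 1 of 9 genes, Aldh1l1, against 9.46% of all start regions. Its 29 start sites were at 32.8%, 33.5% and 33.0% in STD and 32.6%, 31.8% and 30.0% in ENR, a difference of -1.59 percentage points (p = 0.1, exact permutation test, n = 3 per group). That difference was -0.873 without ENR replicate 3, -0.358 with medians over sites (p = 0.9, exact permutation test), and 0.0537 in the other direction after quantile normalization of the libraries.

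Tiles of 1 kb with at least 3 sites gave no call among the 32 that hold sites of the 10 genes (adjusted p = 1.00 for each of the 30 that varied and could be tested, limma). Of those 30, 2 had an unadjusted p under 0.05, against 3.98% of all tiles, but this count was 0 without STD replicate 2, 1 without STD replicate 1, STD replicate 3 or ENR replicate 2, and 3 without ENR replicate 3. In Slc1a3 an intronic tile of 4 sites about 25 kb from the gene start was at 96.8%, 96.7% and 96.8% in STD and 92.6%, 92.5% and 87.6% in ENR. The STD libraries were nearly identical there, and all ENR libraries were lower. In Aldh1l1 an intronic tile of 7 sites about 20 kb from the annotated gene start was at 23.6%, 18.5% and 14.3% in STD and 9.38%, 5.73% and 14.3% in ENR, with replicate 3 of both groups at the same value.

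At single sites, 8 of the 397 differed by over 25 percentage points between group means (1.94% of all sites did), of which 6 were lower in ENR (75%, against 63.6% of all sites past that limit). At 5 of the 397 sites the difference was over 25 percentage points and the groups did not overlap, which held for 0.81% of all sites. None was called by limma (0 of 278 sites that varied, and 0% of all sites tested), and 6 of the 278 had an unadjusted p under 0.05, against 2.68% of all sites tested. That count was 11 without ENR replicate 1, 10 without STD replicate 3 and 5 without ENR replicate 3. With no variance trend it was 16, while the count over all sites went from 16498 to 24040. With 3 mice per group and adjustment over so many sites, even a large change at only a few sites would hardly have been called. The lack of calls therefore does not show that methylation was equal. The 5 sites were in Gfap, Slc1a2 and Aldh1l1, and each had an adjusted p of 0.852 by limma and the smallest exact permutation p of 0.1. The surroundings of 4 of them are printed for 31 bases along the gene, with the described CpG alone in capitals, so that other covered CpGs stay in lower case here.
Gfap intron, chr11:102893272-102893302, minus strand: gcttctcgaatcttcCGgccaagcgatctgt
Slc1a2 intron, chr2:102667901-102667931, plus strand: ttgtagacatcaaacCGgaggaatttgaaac
Slc1a2 intron, chr2:102668319-102668349, plus strand: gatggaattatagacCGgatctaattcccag
Aldh1l1 intron, chr6:90506788-90506818, plus strand: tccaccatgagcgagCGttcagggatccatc

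The Gfap intron site, 7625 bp from the annotated gene start, was at 35.7%, 37.9% and 35.7% in STD and at 0% in all 3 ENR libraries. The groups were wide apart. The 5 other sites within 100 bp were mixed: 3 of them were also lower in ENR, and their mean difference was 1.86 percentage points (ENR minus STD). The Gfap coding-exon site was at 23.7%, 20.7% and 51.7% in STD and 5%, 0% and 15.6% in ENR. Its 6 neighbours within 100 bp differed by -7.03 percentage points on average, 4 of them in the same direction.

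The Slc1a2 sites lie in the same intron and went opposite ways. At the site 9257 bp from the gene start the values were 50%, 30.3% and 0% in STD and 53.3%, 76.9% and 53.8% in ENR. At the site 9675 bp from the gene start they were 50%, 43.4% and 40.7% in STD and 18.9%, 32.3% and 0% in ENR. Averaged over the 5 sites of this stretch, STD was at 32.7% ± 20.1 and ENR at 37.5% ± 7.11 (SD, n = 3), so the stretch as a whole did not separate the groups. The Aldh1l1 site, 20376 bp from the annotated gene start, was at 60%, 43.3% and 57.9% in STD and 13.3%, 17.4% and 36.8% in ENR. Its 3 neighbours within 100 bp all had the same direction, with an average difference of -8.17 percentage points. The site is part of the Aldh1l1 tile with the low p, so that tile is no separate evidence. The other site with all neighbours in its direction was the Slc1a2 site at 9257 bp, which had 1 neighbour, with a difference of 20.3 percentage points.

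**Figure D4:**
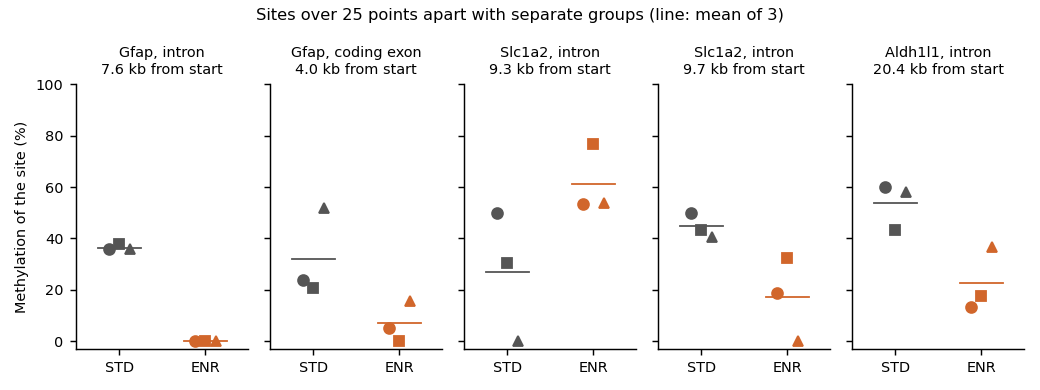
Points show the methylation (%) of each of the 5 sites in the STD and ENR libraries, with the group mean as a line (n = 3). ENR is lower at 4 sites and higher at the Slc1a2 site 9.3 kb from the start.

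Among the other cell-type lists no gene window was called either. Of 26 other astrocyte genes with at least 3 sites, 16 were higher and 10 lower in ENR, with a median difference of 0.517 percentage points, unlike the -2.53 of the 10 genes, though this contrast was not tested. Agt, which encodes angiotensinogen, had the lowest unadjusted p of that list (0.0115, limma; adjusted p = 1.00): it was at 16.1%, 4.83% and 17.2% in STD and 21.6%, 30.7% and 27.9% in ENR over 5 sites. Sox9, a glial transcription factor, came next with 3.04% ± 0.731 in STD and 1.95% ± 0.466 in ENR (SD, n = 3). Mobp, a myelin protein gene, had the only unadjusted p under 0.05 among the other lists (0.0382, limma; adjusted p = 1.00), at 88.8%, 86.9% and 84.9% in STD and 74.6%, 81.7% and 59.3% in ENR. The median difference was -0.394 percentage points over 9 oligodendrocyte genes, -1.33 over 9 microglia genes, -0.273 over 10 granule neuron genes and -0.0974 over 8 endothelial genes.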

How the data were processed

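The authors deposited, as a percent per CpG site, the share of methylated reads in each of 6 libraries; per the submitters' processing notes reads were trimmed with Trim Galore 0.4.0 and cutadapt 1.8.1, aligned to mm10 with Bismark 0.16.1 and tabulated with methylKit 1.5.2. The deposited percentages cover sites that the authors had filtered for at least 10 reads and for extreme coverage. Read counts per site were not used here, so the study's read-level test was not run, and no counting interval is given.

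The 10 genes and all gene lists were chosen with earlier results of these data known. Gene windows and starts followed GENCODE M21. Windows, 1 kb tiles (at least 3 sites) and single sites were fitted on the percentages with limma 3.58.1 (R 4.3.3) with a variance trend, over all features of the table, with Benjamini-Hochberg adjustment. A feature was called at an adjusted p under 0.05 and, for sites and tiles, a difference over 25 percentage points. Single values were compared by a two-sided exact permutation test over 20 regroupings, whose smallest p is 0.1. The fits were also run on simulated data, whose outcome is not reported here and is not used as support. All 10 genes were named. Single sites were named where group means differed by over 25 percentage points and groups did not overlap, and tiles by the lowest p. Single sites of Glul and Aldh1l1 that are described for their levels fall outside this rule and were picked after seeing the data. Other listed genes could be named where their p was among the 2 lowest of their list. Stretches are runs of sites with gaps of at most 500 bp, chosen after seeing the data. The libraries are separate mice per the study's methods. Alternatives were other scales, normalization, summaries, windows and thresholds, a replicate block and leaving out each library. The sequence of 1 Gfap stretch is not reported here.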

Additional observations from a re-analysis of the deposited data

How the results depend on the processing

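No setting gave a called gene window, site or tile, which with 3 mice per group says nothing about stability. The smallest adjusted p over all gene windows was 0.939 and ranged from 0.0584 (without ENR replicate 3) to 1. With replicate number as a replicate block the calls were 0 for gene windows, 0 for sites and 0 for tiles. Same-numbered mice correlated at 0.121, 0.0636 and 0.229 over tiles. STD replicate 2 correlated slightly better with ENR replicate 1 (0.0807) than with ENR replicate 2. Replicate 3 of each group correlated negatively with replicates 1 and 2 of the other group. Whether the numbers pair the mice cannot be told from these values.

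The 8 sites over 25 percentage points became 20 when the limit was 20, 0 when it was 40, 5 where groups also had to be separate, 4 after quantile normalization, 12 with replicates 1 and 2 only, and 10 to 16 without each library in turn (16 without STD replicate 1); the cause was not tested. The share lower in ENR was 75%, against 63.6% of all sites past that limit, and ranged from 68.8% to 92.9% without each library, and was 58.3% with replicates 1 and 2 only. The median over the 10 genes ranged from -2.92 to -1.32 percentage points without each library (-1.32 without STD replicate 2, and -1.57 without ENR replicate 3).

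Gfap, Aqp4, Slc1a3, Aldh1l1 and Aldoc had lower gene windows in ENR under every alternative run. The other genes changed sign in some. Over gene windows, S100b was 0.811 and Apoe -2.31 with medians over sites, and Slc1a2 was 0.0493 with strands averaged and 0.477 after quantile normalization. Without each library, Slc1a2 ranged from -0.925 to 0.860, Gja1 from -0.00118 to 1.77, Glul from -0.0316 to 0.442 and Apoe from -0.159 to 0.438. Over start regions, quantile normalization gave Slc1a2 0.180 and Aldh1l1 0.0537, medians gave Apoe -1.50, and without each library Gja1 and Glul had the same ranges as above and Apoe ranged from -0.187 to 0.517. Read depth is unknown.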
